A study of Homo sapiens with 8 samples.

Results

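Cytosolic ribosomal protein mRNAs were examined for Argonaute binding in 293S cells, a human line derived from HEK293 embryonic kidney cells. They were taken as every listed binding peak whose gene symbol begins with RPL or RPS and a digit, or is RPLP0, RPLP1, RPLP2 or RPSA, leaving out the RPS6K kinases and RPS19BP1. This gave 129 of 22506 listed peaks, in 56 of 6326 genes. Of the 56 genes, 36 encode or resemble proteins of the large ribosomal subunit and 20 proteins of the small subunit. RPSA fell under the rule but had no listed peak. It was among 34 without a listed peak, of 90 protein-coding RefSeq symbols that the rule covers.

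Ago2, the Argonaute protein that carries microRNAs to their targets, was recovered with its crosslinked RNA by immunoprecipitation (CLIP) from adherent cells that were either left untreated or exposed to 20 µg/mL emetine for 60 minutes. Emetine is an alkaloid that blocks the elongation step of translation. There was 1 culture per treatment. Each was divided into 3 CLIP aliquots, 1 for each of 3 Ago2 antibodies (Abnova, Santa Cruz and Sigma), and 1 aliquot for RNA-seq. The spread behind each p-value is that between aliquots and antibodies of 1 culture, not between cultures.

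Ribosomal protein mRNAs are among the most abundant and most translated messages of growing cells. Most vertebrate ones begin with a C and an unbroken run of pyrimidines, the 5′ terminal oligopyrimidine (5′ TOP) motif, through which mTOR signalling and the RNA-binding protein LARP1 adjust their translation together. Their UTRs are usually short, and each protein is one part of the same particle, so that cells make them in step.

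The 5′ TOP motif is shown here because it is the sequence feature that these transcripts share and the rule for choosing them did not use. RefSeq start sites (GRCh38.p14) were matched by symbol for 46 of the 56 genes. A motif was counted where, on the transcribed strand, the listed start was C and at least 4 further bases, each C or T, followed it. Some genes list several starts, and a gene counted if any of them had the motif. It was found for 33 of the 46 genes (71.7%), against 939 of 15771 other protein-coding genes (5.95%) and 1429 of all 35116 start windows (4.07%). The windows below hold 5 bases before the start and 20 from it on, with the pyrimidine run from the start in capitals. The first 5 belong to genes whose values the results turn on and hold the motif.
RPS14, chr5:150449720-150449744, minus strand: ccactCTCTCTTTCCggtgtggagt
RPS3, chr11:75399513-75399537, plus strand: cacttCCTTTCCTTTCagcggagcg
RPL18, chr19:48619159-48619183, minus strand: gttctCTCTTTCCggacctggccga
RPS16, chr19:39435930-39435954, minus strand: gctttCCTTTTCCggttgcggcgcc
RPLP1, chr15:69452813-69452837, plus strand: gagagCCCCTTTCCTCagctgccgc
RPL32, chr3:12841546-12841570, minus strand: ccatcagcccttgcgcgccaccgtc
RPS15, chr19:1438391-1438415, plus strand: cggacCaaagcgatctcttctgagg
RPL32 and RPS15 are printed for contrast: neither listed start opens with the run. A missing match says only that these letters are not at the listed start. The motif was present in 11 of 14 genes with a 5′ UTR peak (78.6%) and 22 of 32 without one (68.8%). It was also found for 16 of 26 ribosomal protein genes outside the 56 (61.5%).

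The table holds 1 average and 1 ratio per peak, from which whole read numbers per library could be recovered for 22491 peaks, including all 129 of the ribosomal protein mRNAs. Within a treatment, library 1 is the one in which a read counts most after scaling, and which antibody made which library is not known. With emetine, listed peaks held 40787, 104715 and 96896 reads in libraries 1 to 3. The control libraries held 39646, 117542 and 103298. A read counts 8.86, 3.00 and 2.81 after scaling with emetine, against 8.002, 2.82 and 2.43 without, so library 1 of each treatment is the shallowest. Of 12 marker genes of blood, fibroblasts, liver, erythroid cells and endothelium, 0 had a listed peak. Of 5 kidney and neural-like genes known in HEK293 derivatives, 1 did (NEFL), and a gene without a peak gives no level.

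Ago2 peaks on ribosomal protein mRNAs lay mostly in coding sequence. Of the 129 peaks, 74 (57.4%) were coding, 36 (27.9%) in 3′ UTRs and 19 (14.7%) in 5′ UTRs. Over all 22506 peaks the same shares were 33.2%, 57.6% and 4.95%. Large-subunit mRNAs had 41 coding, 27 3′ UTR and 13 5′ UTR peaks, and small-subunit mRNAs had 33, 9 and 6. Coding peaks occurred in 41 of the 56 genes, 3′ UTR peaks in 25 and 5′ UTR peaks in 15, and 22 genes had coding peaks alone. No length of each region in these transcripts was used, so the shares are not per base.

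Peaks were few per gene: 22 of the 56 genes had 1. RPL15 had the most, 8 peaks, all in its 3′ UTR. Next came RPL36 and RPLP1 with 6 each, and RPS14, RPS16 and RPL18 were among those with 5. The median peak was 36 nt wide, against 30 nt over all peaks. Overlaps joined 28 of the peaks in 14 pairs within a gene, and 8 peaks shared all 6 read numbers with another, so neighbouring peaks are not independent. By RefSeq, 52 of the 56 genes have at least 1 pseudogene, with a median of 12 and up to 95 (RPL23A). The sources used here do not say how reads matching several copies were assigned, and levels of single genes are uncertain to that extent. One symbol, RPL36A-HNRNPH2, names a readthrough transcript. Its 3′ UTR peak was counted with the large subunit by symbol and was not assigned to either gene here.

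The 129 peaks together drew under 1% of the reads. In these bulk libraries, fewer cells with a bound transcript and less bound RNA per cell cannot be told apart. With emetine, libraries 1 to 3 had 0.478%, 0.715% and 0.912% of their listed reads there. The control libraries had 0.512%, 0.326% and 0.669%. The emetine mean was 0.702% ± 0.217 (SD, n = 3), the control mean was 0.502% ± 0.172 (SD, n = 3), and the groups overlapped. Large-subunit peaks held 0.299%, 0.483% and 0.533% with emetine and 0.401%, 0.202% and 0.487% without, fully interleaved. Small-subunit peaks held 0.179%, 0.232% and 0.380% with emetine and 0.111%, 0.124% and 0.182% without. There, 2 of the emetine libraries lay above all controls and the lowest emetine library was just under the highest control. RPL32, the gene with the most reads, took 7.69%, 23.0% and 14.5% of the ribosomal protein reads with emetine and 0.493%, 6.53% and 6.95% without. Without it, the remaining genes had an emetine mean of 0.591% ± 0.173 (SD, n = 3) and a control mean of 0.479% ± 0.161 (SD, n = 3).

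**Figure D1:**
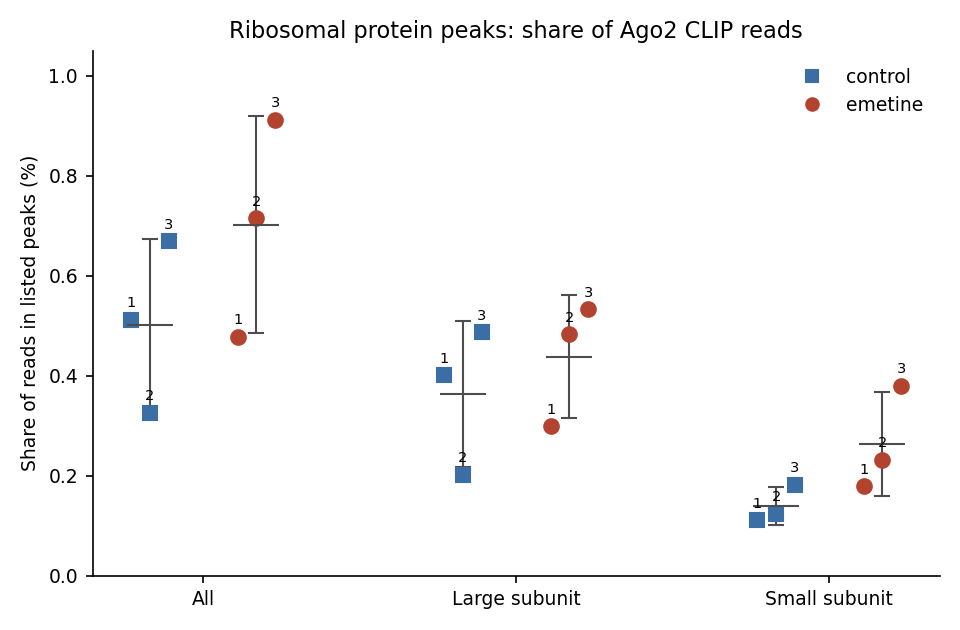
Share of all reads in listed peaks (%, y axis) that fell in ribosomal protein peaks, for all of them and for each subunit, with 1 point per CLIP library labelled by its number; bars are the mean ± SD of 3 libraries. The emetine and control points interleave for all peaks and for the large subunit, while for the small subunit the control points lie from 0.111% to 0.182% and the emetine points from 0.179% to 0.380%.

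Within the ribosomal protein reads, coding peaks took 60.5%, 68.6% and 68.9% under emetine, against 50.7%, 56.7% and 50.5% in the controls. Every emetine library was above every control here. Those in 3′ UTRs took 17.4%, 21.5% and 20.1% under emetine, against 21.7%, 28.7% and 35.7% in the controls, with every control just or well above every emetine library. Those in 5′ UTRs took 22.1%, 9.88% and 10.97% against 27.6%, 14.6% and 13.7%, and the highest values were those of the shallow library 1 of each treatment. Of the reads in all listed peaks, the coding share was 17.1%, 34.0% and 28.4% with emetine and 17.4%, 27.0% and 24.1% without, which overlapped. The 3′ UTR share of all listed reads was 30.3%, 56.0% and 53.8% with emetine and 31.7%, 63.7% and 59.2% without, which overlapped too. All listed reads include those in noncoding exons, where ribosomal protein mRNAs had 0 peaks. Over all coding and UTR reads alone, the coding share of every emetine library was above that of every control. The coding separation was thus not particular to ribosomal protein mRNAs, while the 3′ UTR shares of all coding and UTR reads still overlapped. Within ribosomal protein reads the 3′ UTR groups nearly met, at 21.5% in emetine library 2 and 21.7% in control library 1. RPL32, which had no 3′ UTR peak, took 23.0% of the ribosomal protein reads in the former and 0.493% in the latter. Without the RPL32 reads the 3′ UTR shares of the 2 treatments overlapped, while the coding shares did not. With 3 libraries a side and 1 culture a treatment, no p-value was computed for these shares.

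Changes of single peaks were measured as the difference between treatments of mean log2(scaled reads + 1) over 3 libraries, here called the log2 change, and tested by limma with Benjamini-Hochberg adjustment over all 22491 peaks. No ribosomal protein peak passed an adjusted p of 0.05. Over all peaks 0 passed as well (0.0%), and the smallest adjusted p among the 129 was 0.784. At an unadjusted p under 0.05, 1 of the 129 was higher with emetine (173 of all peaks, 0.769%) and 0 were lower (67 of all peaks, 0.298%). By limma-voom 0 passed after adjustment and 4 before it, and with any 1 library left out 2 to 5 of the 129 did so before it. The standard error of the log2 change had a median of 2.02, so that differences of 4-fold lie near 1 standard error. Counts were simulated from the mean levels of all peaks, with changed peaks drawn only from those at or above the median level. With a set dispersion of 0.2, the peak test found 15.5% of peaks changed 4-fold and 81.0% of those changed 8-fold. With a dispersion of 2 it found 0% of either. Neither dispersion was estimated from these data, and changes in shallower peaks were not simulated. Directions and sizes below are therefore descriptions of these libraries.

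The log2 change was above 0 for 77 of the 129 peaks (59.7%), against 50.2% of all peaks. The median was 0.28, against 0.01 over all peaks. The 2 subunits differed in these counts. Of 48 small-subunit peaks, 37 were above 0, with a median of 0.99. Of 81 large-subunit peaks, 40 were above 0, with a median of -0.01. By ratio of read totals, 32 of the 48 small-subunit and 37 of the 81 large-subunit peaks were above 0. With an added constant of 5 the counts were 33 and 40. Leaving out any 1 library kept the small-subunit median between 0.53 and 1.22, while the large-subunit median ranged from -0.63 (without control library 2) to 0.52. The median of all 129 was -0.05 without emetine library 3 and 0.69 without control library 3. No test of the difference between subunits was made, since the peaks of a subunit share genes and libraries.

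Coding peaks had a median of 0.52, with 50 of 74 above 0, next to 0.29 over all coding peaks in the table. The 3′ UTR peaks had a median of 0.02 with 19 of 36 above 0, next to -0.17 over all 3′ UTR peaks. The 5′ UTR peaks had a median of -0.23 with 8 of 19 above 0, next to 0.19 over all 5′ UTR peaks. On this scale the small-subunit median was the higher one in each region. It was 1.06 against 0.34 in coding sequence (24 of 33 and 26 of 41 above 0) and 0.61 against -0.55 in 3′ UTRs (8 of 9 and 11 of 27). In 5′ UTRs it was 1.35 against -1.03 (5 of 6 and 3 of 13). In the authors' deposited table, whose ratio is relative to RNA, the medians were 0.58 for all 129, 1.08 for small-subunit and 0.25 for large-subunit peaks, against 0.05 for all peaks. There the 5′ UTR median was 0.21, next to 0.25 over all 5′ UTR peaks, so the contrast of that region was not seen. For some genes that ratio rests on few RNA reads. RPLP1 had 11 RNA reads with emetine and 13 without. Its 2 peaks in the 5′ UTR were at 1.32 and 1.78 by the deposited ratio, and at -0.23 and 0.23 by the log2 change. The 2 subunits were close in coding sequence, at 1.00 for the small and 0.93 for the large. By ratio of read totals the coding order turned, to 0.74 for the small and 0.89 for the large subunit. The 3′ UTR median was then -0.48, below the -0.38 of all 3′ UTR peaks. With overlapping peaks counted once, the 5′ UTR median was 0.0036.

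**Figure D2:**
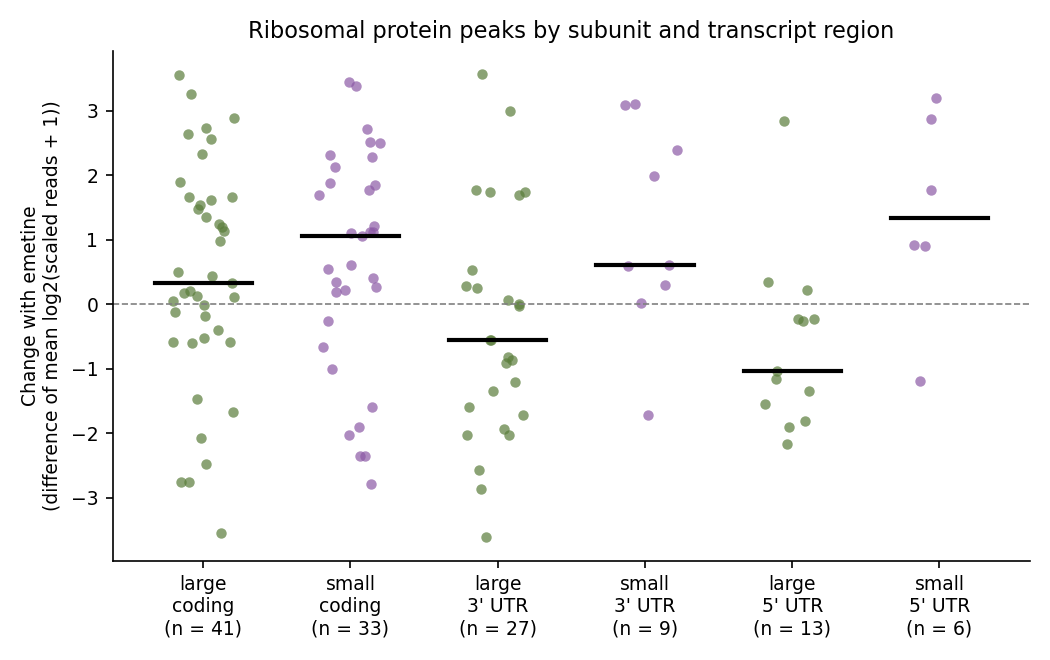
Log2 change of each of the 129 ribosomal protein peaks (y axis, difference of mean log2(scaled reads + 1), emetine minus control), by subunit and transcript region; each point is a peak and each bar the median. Points spread over several log2 units in every column, and on this scale the small-subunit median lies above the large-subunit one in each region, by the most in 5′ UTRs (1.35 against -1.03, with 6 and 13 peaks); by ratio of read totals the coding order turns (0.74 against 0.89).

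After scaling, 7 of the 129 peaks had every emetine library above every control, against 2.55% of all peaks (573). All 7 were coding, 2 in large-subunit and 5 in small-subunit mRNAs, and a pair of them in RPS16 overlapped. The reverse held for 0 of the 129, against 1.43% of all peaks. Reads were uneven between libraries: 1 library held over 50% of the reads of 87 peaks (67.4%, against 80.6% of all peaks), and 12 peaks (9.30%, against 4.78%) had a read in all 6 libraries. No control read was seen for 15 of the 129 peaks (17.7% of all peaks had none) and no emetine read for 9 (20.2% of all peaks).

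RPL32, a protein of the large subunit, held the peak with the most reads, in coding sequence at chr3:12880928-12880959 (hg19, as are all peak positions). It had 15, 171 and 96 reads with emetine, against 1, 25 and 48 in the 3 controls. Scaled for depth, all 3 emetine libraries lay above all 3 controls. The log2 change was 2.65 ± 1.22 (SE, n = 3 and 3), with a limma adjusted p of 0.784 and an unadjusted p under 0.05, which held in 1 of the 6 fits that each leave out 1 library (without emetine library 1). The ratio of depth-scaled read totals was 4.23, with an exact binomial 95% interval of 3.27 to 5.55 that covers counting error only. The log2 change ranged from 1.53 to 3.38 over the fits that each leave out 1 library.

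A second RPL32 peak lay in the 5′ UTR at chr3:12881817-12881844, with 0, 1 and 32 reads with emetine and 0, 0 and 0 without. Nearly all of its reads came from emetine library 3. Summed over both peaks, RPL32 had scaled levels of 133, 517 and 359 with emetine and 8.002, 70.6 and 116 without, with no overlap. Its gene-level log2 change was 2.79 ± 0.95 (SE), with a limma adjusted p of 0.799 over 6317 genes. In RNA it had 301 emetine and 159 control reads, a log2 ratio of -0.42 (95% interval -0.71 to -0.14, counting error only).

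RPS14, a small-subunit protein whose single-copy loss is known from a form of myelodysplastic syndrome, came next. Its coding peak at chr5:149826432-149826486 had 12, 29 and 61 reads with emetine and 4, 3 and 7 without. All emetine libraries were above all controls after scaling, and the log2 change was 2.73 ± 1.45 (SE), with a limma adjusted p of 0.784. The other 4 RPS14 peaks, 3 coding and 1 in the 5′ UTR, were sparse. Summed over 5 peaks, RPS14 had scaled levels of 168, 162 and 205 with emetine and 88.0, 11.3 and 38.8 without. These 3 emetine values lay close together and clear of the controls. Its gene-level log2 change was 2.34 (limma adjusted p = 0.799).

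At an unadjusted limma p under 0.05, 2 of the 56 genes, RPL32 and RPS14, were higher with emetine, against 69 of 6317 genes (1.09%), and 0 were lower (48 of all genes, 0.76%). After adjustment 0 of 56 passed, as did 0 of all genes (0.0%). Of the 6 fits that each leave out 1 library, RPL32 stayed under 0.05 in 3 (without emetine library 1 or control library 1 or 3) and RPS14 in 2 (without control library 1 or 2). Without emetine library 2 or 3 neither did. The single gene under 0.05 without emetine library 2 was RPL15, which was lower, and without emetine library 3 there were 0. They were also the 2 genes in which every emetine library exceeded every control, against 3.01% of all genes. A log2 change above 0 was found for 37 of the 56 genes (51.1% of all genes), for 21 of 36 large-subunit and 16 of 20 small-subunit genes. The gene medians were 0.60 for all 56, 0.24 for the large subunit and 1.23 for the small subunit, against 0.04 over all genes. Without RPL32 and RPS14, the peak median was 0.92 for the small subunit and -0.02 for the large subunit.

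Other peaks with more reads under emetine were found in both subunits. RPL18, a large-subunit protein, had a coding peak at chr19:49120617-49120645 with 1, 31 and 33 reads with emetine and 2, 0 and 2 without. Emetine libraries 2 and 3 were high and the shallow emetine library 1 was below 1 control, and the log2 change was 3.26 ± 1.77 (SE, limma adjusted p = 0.784). RPS3, which lines the mRNA entry channel of the small subunit, had a 3′ UTR peak at chr11:75116675-75116732 with 1, 17 and 45 reads with emetine and 0, 1 and 11 without. Again emetine library 1 was below the highest control, and the log2 change was 3.09 ± 1.79 (SE, limma adjusted p = 0.784). Summed over its 2 peaks, RPS3 had the largest gene-level log2 change among genes with at least 30 reads, 3.33 ± 1.93 (SE).

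RPS6, the small-subunit protein phosphorylated by the ribosomal S6 kinases, had 4 coding peaks. The one at chr9:19378737-19378762 had 1, 3 and 27 reads with emetine and 0, 0 and 2 without. Every scaled emetine value was above every control, but 27 of its 33 reads came from 1 library, and the log2 change was 3.45 ± 2.00 (SE, limma adjusted p = 0.784).

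Among the further genes with the largest gene-level changes were RPS20, RPL3 and RPL31. RPS20, a small-subunit protein, had 1, 14 and 21 reads with emetine and 0, 0 and 13 without over its 2 peaks, and a log2 change of 3.20 ± 2.19 (SE). RPL3, which reaches the peptidyl transferase centre, had 0, 24 and 10 with emetine and 0, 0 and 8 without, and a log2 change of 2.23 ± 2.42 (SE). RPL31, which lies near the exit of the nascent peptide tunnel, had 1, 17 and 19 with emetine and 2, 0 and 7 without, and a log2 change of 2.17 ± 1.96 (SE). In these 3 genes the groups overlapped.

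Of the 6 most negative gene-level changes among genes with at least 30 reads, 5 were in large-subunit genes, and none passed the test. Large-subunit genes were also the majority of all members, 36 of 56. RPL15, a large-subunit protein, had 3, 23 and 22 reads with emetine and 12, 40 and 65 without over its 8 3′ UTR peaks. Scaled levels were 26.6, 69.1 and 61.7 with emetine and 96.0, 113 and 158 without, so in this sum every control exceeded every emetine library. Of the 56 genes, 1 had that order, against 2.18% of all genes. The peak at chr3:23962046-23962068 lies inside that at chr3:23962016-23962068, and both held 5 reads in control library 1. With overlapping peaks counted once, control library 1 fell below emetine libraries 2 and 3, so the order was lost. The gene-level log2 change was then -0.99. Summed over all 8 peaks it was -1.28 ± 1.10 (SE, limma adjusted p = 0.799), and in RNA the log2 ratio was 0.18 (95% interval -0.03 to 0.39). Its peak at chr3:23961560-23961582 had 0, 0 and 0 reads with emetine and 0, 16 and 3 without, and a neighbouring peak 22 nt wide at chr3:23961537-23961559 had 10 reads in library 3 of each treatment and 0 elsewhere.

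RPL5, which together with RPL11 binds and inhibits the p53 ligase MDM2, was another. Over 4 peaks it had 6, 1 and 2 reads with emetine and 10, 14 and 19 without, and a log2 change of -2.25 ± 1.65 (SE, limma adjusted p = 0.799). Emetine library 1 lay inside the control range after scaling and the other 2 below it. Its overlapping coding peaks at chr1:93299106-93299143 and chr1:93299131-93299148 shared the same reads, 1, 0 and 0 with emetine and 3, 7 and 2 without, so the gene sum counts them double. Counted once, the gene-level log2 change was -1.79.

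RPL27A, of the large subunit, had 1 peak, in its 3′ UTR at chr11:8709902-8709930, with 0, 0 and 0 reads with emetine and 6, 0 and 15 without. With the emetine total set at a floor of 3 reads over its 3 libraries, the total was at least 6.30-fold lower. RPL8, also of the large subunit, had a coding peak at chr8:146016682-146016719 with 0, 0 and 0 reads with emetine and 6, 0 and 13 without, at least 5.70-fold lower by the same floor. Another RPL8 coding peak had 5, 1 and 9 reads with emetine and 0, 0 and 9 without, so the peaks of this mRNA did not move one way. RPS15, a small-subunit protein, had a coding peak at chr19:1438841-1438887 with 0, 0 and 1 read with emetine and 1, 14 and 1 without, most of it from control library 2.

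RPL12 and RPL13, of the large subunit, and RPS25, of the small subunit, completed the most negative gene-level changes. RPL12, at the base of the ribosomal stalk, had 0, 8 and 2 reads with emetine and 2, 6 and 12 without (log2 change -1.93 ± 2.13, SE). RPL13 had 0, 0 and 17 with emetine and 6, 0 and 14 without (-1.71 ± 2.38, SE). A pair of its 3 peaks shared the same reads, and counted once they gave -1.13. RPS25 had 1, 1 and 13 against 3, 9 and 3 (-0.63 ± 1.96, SE). Groups overlapped in all 3, and the sign of RPS25 turned without emetine library 2 (0.13).

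**Figure D3:**
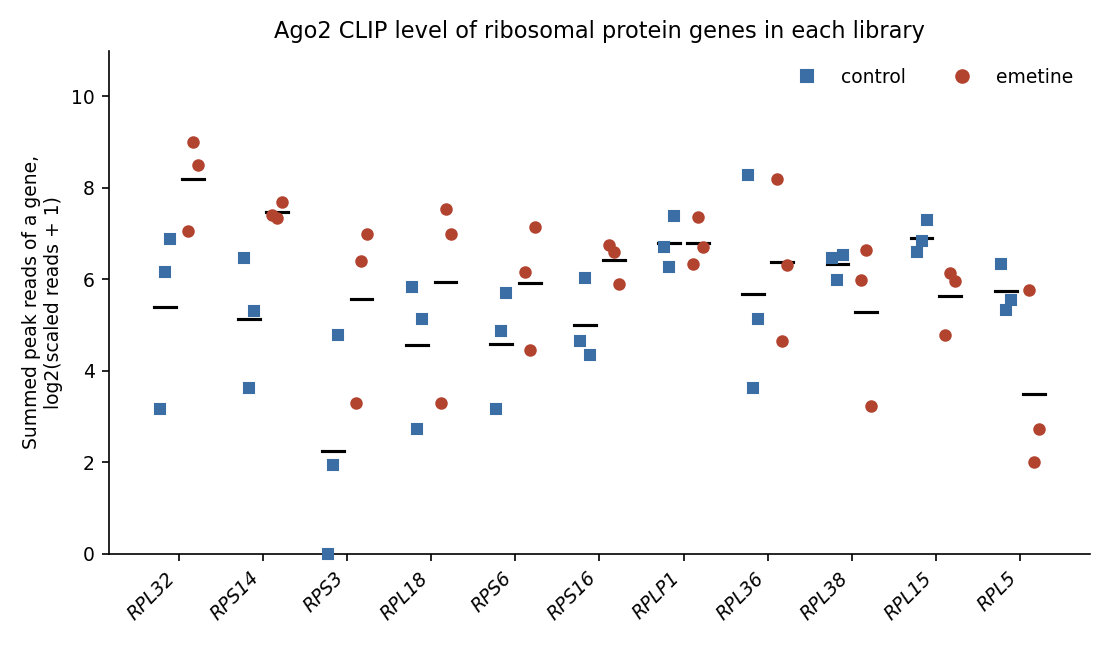
Summed Ago2 CLIP level of 11 ribosomal protein genes in each library (y axis, log2(scaled reads + 1)), with control squares, emetine circles and black bars for the mean of 3 libraries. The emetine points of RPL32 and RPS14 lie above all of their control points and those of RPL15 below, and the points overlap in the other 8 genes. The sums count overlapping peaks separately, and with those of RPL15 counted once its groups overlap too.

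Several genes with many CLIP reads showed no difference that stood out of the spread. RPLP1, an acidic protein of the stalk that recruits elongation factors, had 9, 55 and 37 reads with emetine and 13, 27 and 69 without over 6 peaks. The groups overlapped, and its log2 change was 0.01 ± 0.95 (SE), an estimate that turned to -0.062 when scaled by the listed reads of each library. RPL36, of the large subunit, had 33, 8 and 28 reads with emetine and 39, 4 and 14 without, with the shallow library 1 of each treatment the highest after scaling. RPL38, known for its part in the translation of Hox mRNAs, had 7, 33 and 3 with emetine and 11, 22 and 38 without, and a log2 change of -1.05 ± 1.24 (SE). RPS16 had 12, 32 and 21 with emetine and 3, 23 and 8 without (1.40 ± 1.27, SE). All limma adjusted p-values of these 4 genes were 0.799 or more.

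The 5′ UTR peaks with at least 20 reads were in RPLP1, RPL32, RPL36, RPL38, RPS16 and RPS20. The largest, in RPLP1 at chr15:69745195-69745235, had 4, 16 and 19 reads with emetine and 4, 23 and 11 without, nearly the same in both treatments (log2 change 0.23 ± 1.47, SE). An overlapping RPLP1 peak at chr15:69745159-69745201 had 4, 0 and 4 with emetine and 2, 0 and 17 without. RPL36 had 11, 0 and 3 with emetine and 15, 1 and 1 without at chr19:5690420-5690512, and 6, 0 and 0 against 11, 1 and 3 at chr19:5690483-5690549. Library 1, the shallowest, gave most of the reads of both RPL36 peaks in each treatment.

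In the small subunit, RPS16 had a 5′ UTR peak at chr19:39926553-39926583 with 2, 17 and 2 reads with emetine and 0, 0 and 3 without, at a log2 change of 3.20 ± 2.00 (SE). RPS20 had one at chr8:56986994-56987059 with 1, 8 and 14 reads with emetine and 0, 0 and 10 without, at 2.87 ± 1.93 (SE). Both overlapped between treatments after scaling. The RPL38 peak at chr17:72199823-72199859 had 3, 11 and 1 with emetine and 8, 2 and 5 without, at -0.22 ± 1.74 (SE).

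RNA of the same genes was measured in 1 library per treatment, so there is no replicate check and no test. Ribosomal protein genes with 50 RNA reads or more numbered 51, of which 17 had a log2 ratio of emetine to control above 0 (51.0% of 5806 genes did). The median was -0.11, with quartiles of -0.18 and 0.04, against 0.01 over all genes with as many reads. Large-subunit genes had a median of -0.12 (33 genes) and small-subunit genes of -0.08 (18 genes). Counting intervals left out 0 for 6 genes above and 8 below, against 804 and 797 of 5806. Ratios past 0.5 on the log2 scale were rare: 2 genes above (6.2% of all) and 2 below (5.91%).

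The highest RNA ratio was that of RPL22L1, a paralog of RPL22, with 354 emetine and 79 control reads and a log2 ratio of 0.82 (95% interval 0.46 to 1.19). Its one Ago2 peak, in the 3′ UTR, had 13 reads, all in emetine library 2. RPL36AL, a paralog of RPL36A, had 98 and 27 RNA reads and a ratio of 0.51 (-0.11 to 1.19), RPL37 had 5467 and 1639 and a ratio of 0.39 (0.31 to 0.47), and RPL35 had 422 and 133 and a ratio of 0.32 (0.04 to 0.61). At the low end, RPS16 had 70 and 51 reads and a ratio of -0.88 (-1.43 to -0.34), and RPL17 had 2239 and 1401 and a ratio of -0.67 (-0.77 to -0.57). RPS14 followed with 1305 and 719 reads at -0.48 (-0.62 to -0.35), and RPL36 with 92 and 50 at -0.46 (-0.98 to 0.06). RPS14, RPS16 and RPL32 thus had an RNA ratio below 0 and a CLIP log2 change above 0, whereas RPL17, with 5 CLIP reads with emetine and 23 without, was below 0 in both. The CLIP groups of RPL17 overlapped after scaling, and its log2 change was -1.39 ± 2.02 (SE). Its 2 peaks also overlap, so that sum can count reads double. The wider peak alone held 3 reads with emetine and 14 without.

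**Figure D4:**
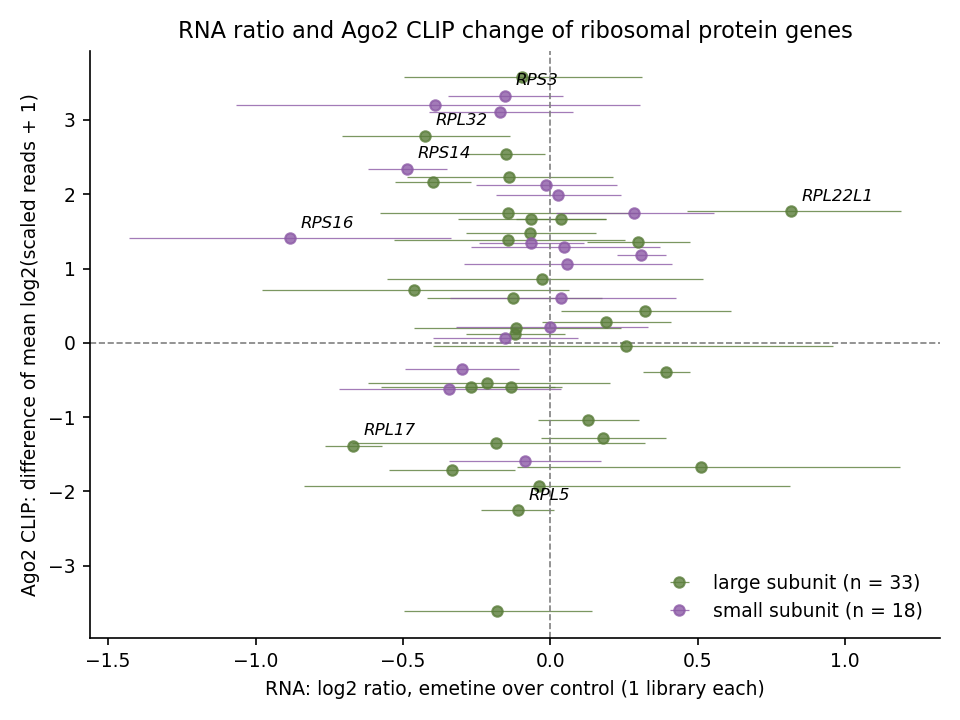
RNA log2 ratio (x axis, emetine over control, 1 library each, bars are 95% counting intervals) against the gene-level Ago2 CLIP log2 change (y axis, 3 libraries each) for the 51 ribosomal protein genes with at least 50 RNA reads, by subunit. RNA ratios stay between -0.88 and 0.82 and most lie left of 0. CLIP changes range from -3.61 (RPL27A) to 3.57 (the readthrough symbol RPL36A-HNRNPH2).

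Genes tied to the ribosome in other ways were read from 3 lists, in which 0 peaks passed the adjusted limma test in either direction. The first held other 5′ TOP mRNAs and ribosomal proteins without an RPL or RPS symbol, of which 17 of 19 genes had 104 peaks, 53 of them above 0, with a median log2 change of 0.04. Of ribosome biogenesis factors, 19 of 30 genes had 102 peaks, 54 above 0, with a median of 0.17. Mitochondrial ribosomal proteins, which are encoded in the nucleus but build the separate mitochondrial ribosome, had 57 peaks in 33 genes, 27 above 0, with a median of -0.22. Cytosolic ribosomal proteins had 0.28 over their 129 peaks, and none of these differences between lists was tested. In the authors' deposited table the medians were 0.38 for the first list, 0.05 for biogenesis factors and 0.29 for mitochondrial ribosomal proteins, against 0.58 for the cytosolic ones.

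Within the first list, NPM1, a nucleolar chaperone of ribosome assembly, had 7, 3 and 18 reads with emetine and 1, 0 and 0 without in its 1 peak, with no overlap after scaling and a gene-level log2 change of 3.94 ± 2.28 (SE, limma adjusted p = 0.799). VIM, the intermediate filament vimentin, had 3, 1 and 10 with emetine and 5, 48 and 26 without (-2.27 ± 1.504, SE). LARP1, the binding protein of the 5′ TOP motif, had nearly as many reads with emetine as without, 39, 65 and 47 against 41, 63 and 70 over 20 peaks (-0.05 ± 0.73, SE). These 3 genes were chosen after their values were seen. In RNA, 12 of the 17 first-list genes were below 0, at a median of -0.15, while 18 of 19 biogenesis factors were above 0, at a median of 0.23.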

How the data were processed

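Ago2 CLIP and RNA-seq came from 8 libraries of 293S cells, 3 CLIP libraries and 1 RNA library per treatment. The members and the gene lists were chosen with earlier results of these data known. Per the file headers, the authors gave every peak a position, region and gene symbol with 2 values, the average over treatments and the ratio between them. The deposited values are on a natural log scale, which the headers do not name and which was inferred from the values. Per the submitters' processing notes, build hg19, Bowtie 0.12.8, TopHat and DESeq were used, with no roles given. The sources used here do not give the peak caller, strand handling or start convention, and positions are printed as listed.

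The average and ratio together give 1 value per treatment. It is ln(1 + scaled reads) averaged over the 3 CLIP libraries, less ln(1 + scaled RNA reads). Whole reads satisfying this were found for 22491 of 22506 peaks (99.93%) within 5e-14, for 252 of them by taking the 1 pair of RNA solutions within 8-fold of each other. Shifted values matched 0 of 4985 (emetine) and 0 of 4989 (control) times. On simulated peaks with other factors, 99.97% came out right and 0.0% wrong. The 15 unmatched peaks, none of them a member, were left out. Every peak has at least 11 reads. Values of other samples were in 0 further columns.

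limma 3.58.1 in R 4.3.3 was fitted with a trend to log2(reads × factor + 1), 3 against 3 libraries, with no filter, over all peaks and over gene sums. The recovered reads were also fitted with limma-voom, for peaks. No negative binomial model was run, and no antibody term was fitted, since antibodies could not be assigned. The peak fit was tested on simulated counts of 22491 peaks with 200 changed. Totals of reads were divided by the depth of each treatment (the sum of its inverse factors) before taking a ratio, with totals of 0 set at 3 reads. Intervals are exact binomial at 95% and cover counting error only.

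Genes named were the 10 with the most reads, the 6 largest and 6 most negative changes with at least 30 reads, the 4 highest and 4 lowest RNA ratios with at least 50 RNA reads, and any at an unadjusted p under 0.05. Peaks named were the 6 with the most reads, the 6 with the smallest p each way, and 5′ UTR peaks with at least 20 reads. Some that these rules name are not reported here. Alternatives covered the added constant, scaling, filters, limma-voom, each library left out and overlapping peaks. Figures were drawn with matplotlib 3.10.9 in Python 3.11.15.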

Additional observations from a re-analysis of the deposited data

How the results depend on the processing

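No setting brought a ribosomal protein peak or gene past an adjusted p of 0.05, and the fits that leave out 1 library gave 0 to 0 for both. With at least 20 reads per peak, the median log2 change was 2.12 for the small subunit (17 of 17 peaks above 0) and 1.89 for coding peaks (17 of 22). It was -0.10 for the large subunit (14 of 30) and -0.01 over all 6745 peaks with as many reads, of which 49.7% were above 0. The filter adds the reads of both treatments, so a peak read in 1 treatment alone can pass. Of the 47 ribosomal protein peaks that passed, 4 had no control read and 1 had no emetine read. With each library left out in turn, the median ranged from -0.63 to 0.52 for the large subunit, from 0.53 to 1.22 for the small subunit and from -0.05 to 0.69 for all 129 peaks. It ranged from 0.16 to 0.91 for coding, -0.73 to 0.46 for 3′ UTR and -0.65 to 0.11 for 5′ UTR peaks. Ribosomal protein peaks at an unadjusted p under 0.05 numbered 4 by limma-voom and 2 with a constant of 5. The sign of some small changes turned, and the cause was not tested. For RPLP1 the gene-level change was -0.062 when scaled by the listed reads of each library and -0.095 with overlapping peaks counted once, and its coding peak starting at 69747544 had 0.20 with a constant of 5 and 0.64 by limma-voom. With a library left out, gene-level changes spanned -0.32 to 2.01 (RPL36), -0.27 to 0.32 (RPLP1) and -1.49 to 0.13 (RPS25). Peak changes spanned -1.93 to 1.43 (RPL36, start 5690420), -0.93 to 0.78 (RPL38, start 72199823) and, for RPLP1, -1.81 to 1.24 (start 69745159), -0.021 to 0.60 (start 69745195) and -1.45 to 1.67 (start 69747544). The other 450 values of named genes and peaks and 125 of the main comparisons kept their direction and side of the threshold, or stayed within the spread. No paired analysis was possible because the deposited values carry no antibody and no replicate number for a library. limma-voom on gene sums gave a median standard error of 17.5 and was not used. Peaks counted once where overlapping or identical, the fit without RPL32 and RPS14 and that without RPL36A-HNRNPH2 were chosen after seeing the data. Depth and the spread between libraries both limit these values: a median ribosomal protein peak has 16 reads over 6 libraries.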
